A study of Mus musculus with 12 samples.

Results

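The genes of MHC class I antigen presentation were followed in B16F10 cells, a mouse melanoma line, by the symbols given in the deposited count files. The 10 genes were H2-K1, H2-D1, B2m, Tap1, Tap2, Tapbp, Psmb8, Psmb9, Psmb10 and Nlrc5, of 24421 gene symbols in the files, and all 10 were found. Of these, 8 passed a filter of 1 CPM (count in every 1e+06 counts of a library) in 3 or more of the 12 libraries and were tested among 11638 genes. Psmb8 and Psmb9 stayed below that level and are described by their counts.

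The study treated the cells with DMSO as control, with DAC (5-aza-2'-deoxycytidine, an inhibitor of DNA methylation), with SFN (sulforaphane, an isothiocyanate of cruciferous vegetables) or with both drugs, and sequenced RNA of 3 independent repeats in each of the 4 groups. DAC was given at 25 nM for 72 h, and SFN for the last 48 h of the 72 h. The labels give SFN at 5 nM in the single treatment and at 5 µM in the combination treatment, whereas the methods of the study name the same dose for both, so it is not settled whether the SFN groups differed in dose. All groups are cultures of the same unmodified cell line, which as a model holds no immune cells, and surface protein was not analysed here.

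MHC class I molecules carry short peptides from the inside of the cell to its surface, where CD8+ T cells read them. The proteasome cuts proteins into peptides, the TAP transporter moves these into the endoplasmic reticulum, and tapasin helps to load them on a heavy chain bound to beta-2 microglobulin. Interferons raise most of these genes through STAT and IRF factors, NLRC5 switches them on together with RFX, NF-Y and CREB family proteins at their promoters, and B16F10 is known for low class I on its surface in the absence of interferon.

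In mm10, 7 of the 10 genes lie on chromosome 17, B2m lies on chromosome 2, and Psmb10 and Nlrc5 lie on chromosome 8. The heavy chain genes are H2-K1 at chr17:33996017-34000347 on the minus strand and H2-D1 at chr17:35262730-35267499 on the plus strand, and B2m, their light chain, is at chr2:122147686-122153083. The peptide transporter subunits Tap1 (chr17:34187553-34197225) and Tap2 (chr17:34203527-34216321) sit beside the immunoproteasome subunits Psmb9 (chr17:34181987-34187764) and Psmb8 (chr17:34197721-34201454), and Tapbp, which encodes tapasin, is at chr17:33915899-33929292. The remaining genes are Psmb10 at chr8:105935735-105938444 and Nlrc5 at chr8:94434356-94527272. Exons of Tap1 and Psmb9 overlap on opposite strands, and their RefSeq start sites are 226 bases apart. Exons of Tapbp overlap those of Zbtb22 on the same strand, Tap2 and Psmb8 overlap Gm20496, and Nlrc5 overlaps 9330175E14Rik. The strand setting of the counting is not given in the sources used here, so reads in these stretches cannot be assigned with certainty.

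The RefSeq promoter table (GRCm38.p6, the assembly behind mm10) held 8 of the 10 genes, all but Tap2 and Nlrc5. The 250 bases before the start were searched on both strands for the interferon element GAAANNGAAA, the shorter IRF core AANNGAAA, the kappaB letters GGGNNTTCCC, the GAS letters TTCNNNGAA, the CRE core TGACG and the NF-Y letters CCAAT. These were held by 2.97%, 21.3%, 1.54%, 7.01%, 17.7% and 33.8% of 32817 promoter windows of that length, in the same order. The RefSeq start can lie inside the gene positions given above. The windows of H2-D1, Tapbp, Psmb8 and Psmb9 lay wholly inside them, and those of B2m, Tap1 and Psmb10 partly. The window of H2-K1 (chr17:34000348-34000597, minus strand) and that of B2m up to the base before its annotated start (chr2:122147437-122147685, plus strand) are shown because H2-K1 is the member that fell most and B2m is its light chain, which had no call against control. All matches other than the GAS letters, which neither window held, are in capitals.

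H2-K1: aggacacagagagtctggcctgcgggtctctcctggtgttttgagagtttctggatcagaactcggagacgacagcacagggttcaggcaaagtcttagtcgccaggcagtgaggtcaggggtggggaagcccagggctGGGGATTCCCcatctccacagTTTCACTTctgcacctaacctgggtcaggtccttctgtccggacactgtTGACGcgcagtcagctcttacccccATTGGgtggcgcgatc

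B2m: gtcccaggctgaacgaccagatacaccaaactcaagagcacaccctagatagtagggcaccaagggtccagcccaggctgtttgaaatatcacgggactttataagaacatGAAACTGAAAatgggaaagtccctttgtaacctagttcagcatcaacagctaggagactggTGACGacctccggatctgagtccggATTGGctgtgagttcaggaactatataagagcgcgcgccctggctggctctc

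The window of H2-K1 held the kappaB letters first and then an IRF core, followed by the CRE core and the NF-Y letters. The window of B2m held the longer interferon element, which includes an IRF core, and the same CRE core and NF-Y letters, but no kappaB letters. The kappaB and IRF stretch also stood in the window of H2-D1, with the same spacing of 11 bases. It is shown for both heavy chain genes (H2-K1 at chr17:34000430-34000458, minus strand, and H2-D1 at chr17:35262923-35262951, plus strand). Both genes were called lower with SFN against control and with DAC+SFN against DAC, and B2m was also called lower in the latter. H2-D1 did not pass with DAC+SFN against control. A part of these letters in the changes was not tested.

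H2-K1: GGGGATTCCCcatctccacagTTTCACTT

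H2-D1: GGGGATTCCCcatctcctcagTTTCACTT

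Over their best local alignment the windows of H2-K1 and H2-D1 were identical at 161 of 177 positions (91.0%). Tap1 and Psmb9 also held the CRE core and the NF-Y letters, at the same sites, since their windows overlap on opposite strands. Tapbp held the NF-Y letters, and neither Psmb8 nor Psmb10 held the CRE core or the NF-Y letters. The windows held 9 CpG for H2-K1, 14 for H2-D1, 8 for B2m, 14 for Tap1, 10 for Tapbp, 10 for Psmb8, 12 for Psmb9 and 3 for Psmb10, against a median of 6 over all windows. A match describes letters only, and DNA methylation was not analysed here.

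Between 15880957 and 27291436 reads per library were counted on genes, so that 1 CPM stood for 16 to 27 counts. Samples with the same replicate number deviated together across genes, with a correlation of 0.270 to 0.732 over 18 pairs, and the number entered the model as a block. All 7 melanocyte lineage genes (Mitf, Sox10, Pmel, Tyr, Tyrp1, Dct and Mlana) were expressed, with a summed level of 21417 to 30155 CPM. With DAC+SFN, Pmel (log2 fold change -0.36, adjusted p = 0.0129) and Tyrp1 (-0.17, adjusted p = 0.0478) fell, and the other 5 did not pass. Of 8 leukocyte genes only Cd68 passed the filter, and the other 7 summed to between 0 and 6 counts per library, with at most 3 counts in any DAC+SFN library. Cd68, a lysosomal membrane protein that is most abundant in macrophages, rose with SFN (log2 fold change 1.11, adjusted p = 0.000729) and with DAC+SFN (log2 fold change 1.55, adjusted p = 1.98e-05). The 3 endothelial genes summed to at most 14 counts per library. The 4 fibroblast genes summed to 2.59 to 9.85 CPM over all libraries, with 4.35 to 8.99 CPM in control. Their sum was 4.26 to 9.85 CPM with DAC, 2.59 to 5.19 CPM with SFN and 3.64 to 5.74 CPM with DAC+SFN. Of these genes Pdgfra fell with SFN (log2 fold change -0.84, adjusted p = 0.0240) and with DAC+SFN (-0.73, adjusted p = 0.0249). Col1a2 did not pass in either comparison (adjusted p = 0.0525 and 0.689). The part of the fibroblast genes in the results was not tested. Fewer cells with a transcript and less of it per cell cannot be told apart in these bulk samples.

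The light chain was by far the most abundant transcript of the set and the immunoproteasome subunits Psmb8 and Psmb9 were nearly silent. In control cells B2m stood at 273 ± 34.7 RPKM (SD, n = 3; TMM-normalized counts per kilobase of exon and 1e+06 counts, with GENCODE exon lengths). Next came H2-K1 at 14.1 ± 8.17, Tapbp at 12.9 ± 4.62, H2-D1 at 11.2 ± 1.70 and Psmb10 at 8.70 ± 1.11 RPKM, and the ranges of neighbours in this order overlapped. Tap1 at 1.52 ± 0.419 and Tap2 at 0.871 ± 0.458 RPKM overlapped each other but lay below Psmb10 in all 3 libraries. Nlrc5 at 0.134 ± 0.0787, Psmb9 at 0.0851 ± 0.0843 and Psmb8 at 0.0498 ± 0.0755 RPKM were at the bottom and overlapped one another.

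**Figure D1:**
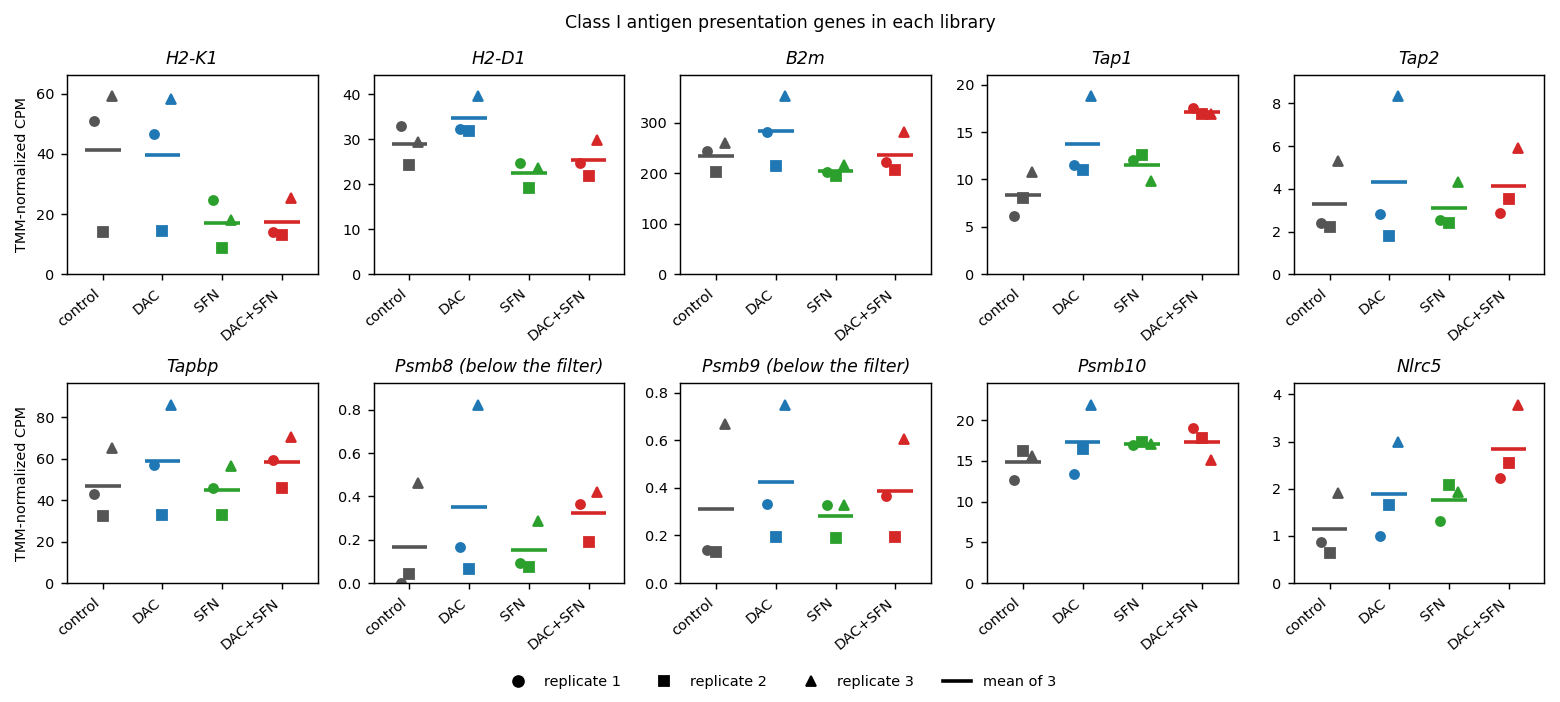
TMM-normalized CPM (vertical axis, starting at 0) of the 10 genes in each of the 12 libraries, by group on the horizontal axis, with the replicate number as the symbol and the mean of 3 as a bar. H2-K1 sits at 8.88 to 25.4 CPM with SFN or DAC+SFN, Tap1 sits at 16.9 to 17.5 CPM with DAC+SFN above all control libraries, and replicate 2 of H2-K1 is low in control and DAC.

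H2-K1, the heavy chain of the K molecule, was lowered in both groups that received SFN. Its level in replicates 1, 2 and 3 was 51.0, 14.1 and 59.2 CPM in control, 46.6, 14.5 and 58.1 CPM with DAC, 24.5, 8.88 and 18.0 CPM with SFN, and 14.1, 13.0 and 25.4 CPM with DAC+SFN. Replicate 2 was low in every group, so the ranges of control and SFN overlapped, yet within each replicate number the SFN and DAC+SFN libraries were below control in 3 of 3 pairs. Group accounted for 35.0% of the variation of its log2 level and the replicate number for 52.5%. H2-K1 fell 2.26-fold with SFN compared to control (log2 fold change -1.18 ± 0.24 SE, adjusted p = 0.00412, edgeR's quasi-likelihood test with Benjamini-Hochberg adjustment over all 11638 genes, as for each adjusted p given here). It fell 2.14-fold with DAC+SFN compared to control (log2 fold change -1.10 ± 0.24, adjusted p = 0.00324). With DAC alone its log2 fold change was -0.04, with a 95% interval from -0.52 to 0.44. The drop between DAC+SFN and DAC (log2 fold change -1.06, adjusted p = 0.00912) was no longer called without replicate 1 of DAC+SFN (-0.71, adjusted p = 0.0637). With no replicate block, the adjusted p of H2-K1 was 0.316 for SFN and 0.175 for DAC+SFN against control.

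H2-D1, the heavy chain of the D molecule, moved in the same direction with SFN by a smaller amount. Its level was 33.0, 24.3 and 29.5 CPM in control, 32.4, 32.0 and 39.7 CPM with DAC, 24.8, 19.2 and 23.8 CPM with SFN, and 24.7, 21.9 and 29.8 CPM with DAC+SFN. The SFN and control ranges overlapped by a narrow margin, and all DAC+SFN libraries lay below all DAC libraries. It fell with SFN compared to control (log2 fold change -0.36 ± 0.10, adjusted p = 0.0212) and between DAC+SFN and DAC (log2 fold change -0.45 ± 0.09, adjusted p = 0.00603). The call with SFN was lost without replicate 1 or 2 of control or replicate 2 or 3 of SFN, with an adjusted p of up to 0.147, and with no replicate block both calls were lost (adjusted p = 0.292 and 0.172). DAC+SFN against control gave a log2 fold change of -0.19 for H2-D1, which did not pass (adjusted p = 0.153).

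B2m encodes beta-2 microglobulin, the light chain that all class I heavy chains need. Its level was 244, 202 and 259 CPM in control, 282, 215 and 353 CPM with DAC, 203, 194 and 217 CPM with SFN, and 223, 205 and 281 CPM with DAC+SFN, and all groups overlapped. DAC+SFN compared to control gave a log2 fold change of 0.01, with an interval from -0.17 to 0.18. This interval leaves out a change as large as that of H2-K1. With DAC the log2 fold change was 0.25 (adjusted p = 0.258) and with SFN -0.19 (adjusted p = 0.136), neither of which passed. B2m was higher than control in 3 of 3 pairs with DAC and in 0 of 3 with SFN. B2m fell between DAC+SFN and DAC (log2 fold change -0.25 ± 0.08, adjusted p = 0.0481), a call that was lost when any of 8 libraries was left out (adjusted p up to 0.219) and kept only without replicate 2 of DAC, replicate 2 or 3 of SFN or replicate 3 of DAC+SFN. It rose with DAC averaged over SFN, which compares the 6 libraries with DAC with the 6 without it (log2 fold change 0.22 ± 0.06, adjusted p = 0.0345). This second call was kept only without replicate 2 of DAC, replicate 2 of SFN or replicate 3 of DAC+SFN (adjusted p up to 0.143 in the others). Both calls of B2m were lost with no replicate block. Of the alternative settings, 6 of 8 kept the first call (adjusted p up to 0.458) and 6 of 7 the second (up to 0.570).

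The 7 other class I genes that passed the filter, of 27 listed, included H2-Q4 and H2-K2, which followed H2-K1. H2-Q4 fell with SFN (log2 fold change -0.52, adjusted p = 0.0139) and with DAC+SFN (-0.58, adjusted p = 0.00357). H2-K2 fell with DAC+SFN (-0.68, adjusted p = 0.0209) and had a log2 fold change of -0.55 with SFN (adjusted p = 0.0799). Fcgrt, which encodes the neonatal Fc receptor, had a log2 fold change of 0.28 with DAC+SFN (adjusted p = 0.108). With DAC+SFN, 2 of these 7 fell and 0 rose, where 14.7% of all genes fell and 17.0% rose, and their median log2 fold change was 0.08 against 0.01 for all genes tested. The H2 genes are close copies of each other and only reads placed at a single site were counted, so reads shared among H2-K1, H2-D1, H2-Q4 and H2-K2 were left out or may have been given to the wrong copy, and the share of each gene is uncertain.

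Tap1, which with Tap2 forms the peptide transporter, was the member with the smallest adjusted p in the combination treatment, and it rose. Its level was 6.16, 8.09 and 10.7 CPM in control, 11.5, 11.0 and 18.8 CPM with DAC, 12.1, 12.6 and 9.85 CPM with SFN, and 17.5, 16.9 and 17.0 CPM with DAC+SFN. All DAC and all DAC+SFN libraries lay above all control libraries, the DAC+SFN libraries lay above all SFN libraries, and the SFN and control ranges overlapped. Tap1 rose 2.09-fold with DAC+SFN compared to control (log2 fold change 1.06 ± 0.19, adjusted p = 0.000741), in 3 of 3 replicates, and stayed called with no replicate block (adjusted p = 0.0170) and in all 12 fits that left out a library. It rose with DAC averaged over SFN (log2 fold change 0.65 ± 0.13, adjusted p = 0.0129, and 0.219 with no replicate block). With DAC alone it had a log2 fold change of 0.74 ± 0.19, which did not pass over all genes (adjusted p = 0.156) but did in DESeq2 (adjusted p = 0.0184). With SFN alone the log2 fold change was 0.49 (adjusted p = 0.102).

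Tap2 was low and followed the replicate number more than the treatment. It stood at 2.39, 2.19 and 5.29 CPM in control, 2.82, 1.79 and 8.35 CPM with DAC, 2.54, 2.41 and 4.33 CPM with SFN, and 2.87, 3.54 and 5.93 CPM with DAC+SFN. Replicate 3 was the highest in each group, and the replicate number held 79.1% of the variation of its log2 level against 6.30% for the group. Its log2 fold change with DAC+SFN was 0.36, with an interval from -0.14 to 0.86 that holds both no change and a rise of that size (adjusted p = 0.258).

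Tapbp, the gene of tapasin, rose slightly with the combination treatment. It was at 42.8, 32.4 and 65.2 CPM in control, 56.9, 33.1 and 86.1 CPM with DAC, 45.7, 33.0 and 56.6 CPM with SFN, and 59.5, 45.8 and 70.6 CPM with DAC+SFN. The groups overlapped widely, while within replicate numbers DAC+SFN was above control in 3 of 3 pairs. Tapbp rose 1.28-fold with DAC+SFN (log2 fold change 0.36 ± 0.10, adjusted p = 0.0169) and with DAC averaged over SFN (log2 fold change 0.35 ± 0.07, adjusted p = 0.0169). Both calls were lost with no replicate block (adjusted p = 0.551 and 0.678). The first was also lost without replicate 1 or 2 of control or of DAC+SFN (adjusted p up to 0.1101), and the second without replicate 1 of control, replicate 1 or 3 of SFN or replicate 2 of DAC+SFN (adjusted p up to 0.0780).

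Among 10 other peptide loading and processing genes, none rose and 3 fell with DAC+SFN, where 17.0% of all genes rose and 14.7% fell. Calr, the chaperone calreticulin, had a log2 fold change of -0.38 (adjusted p = 0.000224), Hspa5, the chaperone BiP, -0.42 (adjusted p = 0.000364) and Pdia3, the ERp57 oxidoreductase, -0.15 (adjusted p = 0.0416). Calr (-0.22, adjusted p = 0.0201) and Hspa5 (-0.26, adjusted p = 0.0194) also fell with SFN alone. The median log2 fold change of the 10 with DAC+SFN was -0.07. With DAC+SFN, of 8 peptidases that trim antigens, Lnpep rose (0.61, adjusted p = 8.34e-05), Blmh fell (-0.32, adjusted p = 0.00124), and Tpp2 had a log2 fold change of 0.12 (adjusted p = 0.104).

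The immunoproteasome subunits Psmb8, Psmb9 and Psmb10 replace the catalytic subunits of the constitutive proteasome, Psmb5, Psmb6 and Psmb7, when interferon acts. In replicates 1, 2 and 3, Psmb8 had 0, 1 and 9 counts in control cells, 4, 1 and 22 counts in DAC-treated cells, 2, 2 and 7 counts after SFN, and 8, 4 and 9 counts after DAC+SFN. Psmb9 had 3, 3 and 13 counts in control cells, 8, 3 and 20 counts in DAC-treated cells, 7, 5 and 8 counts after SFN, and 8, 4 and 13 counts after DAC+SFN. Both had the most counts in replicate 3 of each group, and all groups overlapped. With no filter on low counts, the log2 fold change with DAC+SFN was 1.23 for Psmb8 (adjusted p = 0.339) and 0.38 for Psmb9 (adjusted p = 0.746), with intervals from -0.42 to 2.89 and from -0.91 to 1.68, so a change of up to several fold was not detectable at this depth.

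Psmb10 stood above 1 CPM in every library, unlike the other immunoproteasome subunits. Its level was 12.7, 16.3 and 15.6 CPM in control, 13.4, 16.5 and 21.9 CPM with DAC, 16.9, 17.3 and 17.1 CPM with SFN, and 19.0, 17.8 and 15.1 CPM with DAC+SFN. The SFN libraries lay above the control libraries without overlap, and the other groups overlapped control. The log2 fold change of Psmb10 was 0.22 with DAC, 0.21 with SFN and 0.23 with DAC+SFN, and none of these passed (adjusted p = 0.657, 0.382 and 0.250). Without replicate 3 of DAC+SFN, the combination gave 0.39 for Psmb10 (adjusted p = 0.0408).

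Measured per kilobase of exon, the constitutive subunits stood far above their replacements in control, with 89.4 RPKM for Psmb5, 90.6 RPKM for Psmb6 and 58.9 RPKM for Psmb7. Psmb10 made up 12.9% ± 1.25 (SD, n = 3) of the summed RPKM of Psmb10 and Psmb7 in control and 16.4% ± 3.16 with DAC+SFN, with overlapping ranges of 11.5% to 13.9% and 13.5% to 19.8%. The share of Psmb8 in the sum with Psmb5 was at most 0.245% in any library. That of Psmb9 in the sum with Psmb6 was at most 0.232%. These shares depend on the exon lengths used, such as 1705 bases for Psmb10 and 3421 bases for Psmb7. The annotation used in counting is not given in the sources used here. Of 14 constitutive 20S genes, 8 fell with DAC+SFN and none rose, where 14.7% of all genes fell and 17.0% rose, and their median log2 fold change was -0.18. Psma1 (-0.41, adjusted p = 0.000993), Psmb2 (-0.33, adjusted p = 0.00106) and Psma4 (-0.28, adjusted p = 0.00221), which encode subunits of its outer and inner rings, had the smallest p-values.

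Nlrc5, the transactivator of class I genes, had few counts but the largest positive change among the members in the combination. It had 19, 15 and 37 counts in control cells, 24, 26 and 80 counts in DAC-treated cells, 28, 55 and 47 counts after SFN, and 49, 53 and 81 counts after DAC+SFN. These correspond to 0.87, 0.65 and 1.90 CPM in control and 2.23, 2.54 and 3.78 CPM with DAC+SFN, which do not overlap, whereas DAC alone (0.99, 1.66 and 2.997 CPM) and SFN alone (1.32, 2.07 and 1.92 CPM) overlapped control. Only 1 control library reached 1 CPM, so the gene passed the filter mainly through the treated groups. Nlrc5 rose 2.58-fold with DAC+SFN (log2 fold change 1.36 ± 0.28, adjusted p = 0.00238), in 3 of 3 replicates and in all 12 fits that left out a library, and with no replicate block its adjusted p was 0.0780. Its log2 fold change was 0.73 with DAC (adjusted p = 0.420), 0.70 with SFN (adjusted p = 0.135) and 0.70 with DAC averaged over SFN (adjusted p = 0.0565, and 0.0198 with no filter on low counts).

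**Figure D2:**
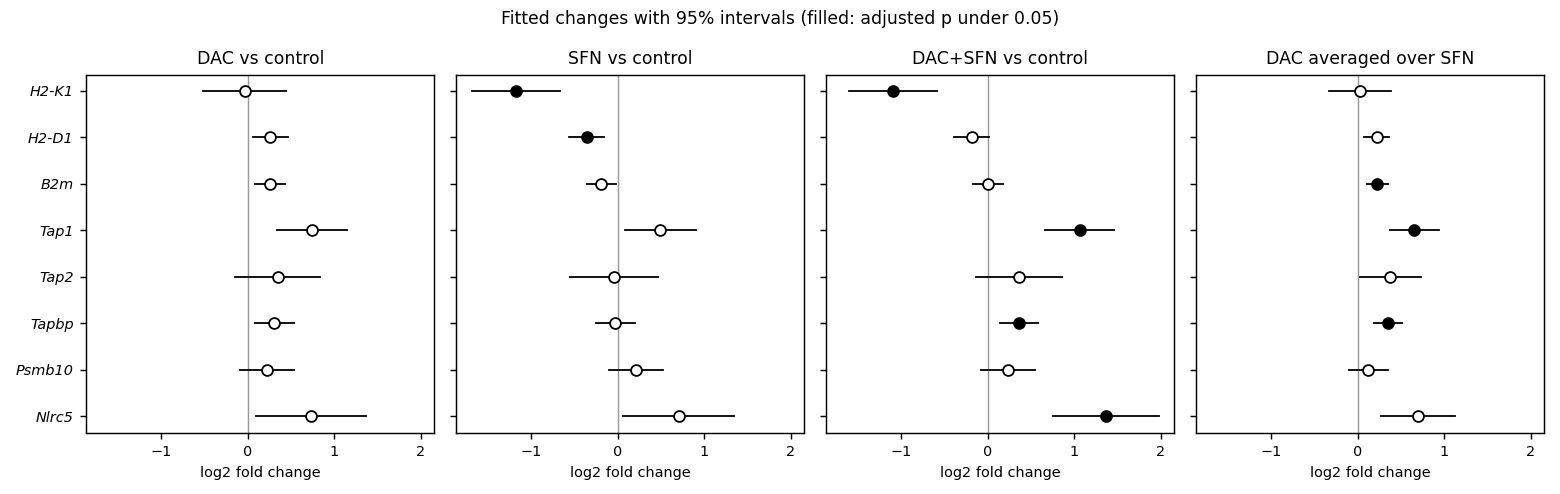
Log2 fold change (horizontal axis) of the 8 tested genes in 4 comparisons with 95% intervals, filled where the adjusted p was under 0.05. H2-K1 lies below 0 with SFN (-1.18) and with DAC+SFN (-1.10), Tap1, Tapbp and Nlrc5 lie above 0 with DAC+SFN, and no gene is filled for DAC alone.

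Counted over the 8 tested genes, DAC alone called 0 members, where 0.180% of all genes were called higher and 0% lower. Of these, 5 members had an unadjusted p under 0.05 and 1 (Tap1) was called by DESeq2. SFN called 2 lower (H2-K1 and H2-D1) and 0 higher, where 5.65% of all genes were lower and 8.27% higher. DAC+SFN against control called 3 higher and 1 lower, where 17.0% of all genes were higher and 14.7% lower. The median log2 fold change of the 8 members was 0.28 with DAC, -0.04 with SFN and 0.30 with DAC+SFN, against at most 0.01 for all genes tested. The comparisons with control share the control libraries, and those with DAC+SFN share that group.

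The remaining comparisons set the combination against each single drug and test DAC over both SFN states. If the SFN dose differed between the single and the combination treatment, as the labels have it, then in DAC+SFN against SFN, in DAC averaged over SFN and in the interaction that difference and DAC cannot be told apart. DAC+SFN against DAC called 3 members lower (H2-K1, H2-D1 and B2m) and 0 higher, where 6.60% of all genes were lower and 9.55% higher. DAC+SFN against SFN called 0, where 0.937% of all genes were higher and 0.670% lower, although all 8 log2 fold changes were positive. In this comparison 4 members had an unadjusted p under 0.05, where 17.8% of all genes had one. DESeq2 called 2 members (Tap1 and Tapbp), where it called 404 of 11638 genes. DAC averaged over SFN called 3 higher (Tap1, Tapbp and B2m) and 0 lower, where 3.07% of all genes were higher and 2.15% lower. The interaction of the drugs called 0 members, as it called 0% of all genes. It had 0 members at an unadjusted p under 0.05, where 5.87% of all genes had one, and 0 called by DESeq2. Its interval ran from -0.60 to 0.84 for H2-K1 and from -0.73 to 0.39 for Tap1 on the log2 scale, so departures from additive log2 changes of that size were not detectable.

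Ratios of counts within a library do not depend on how libraries were scaled. The log2 ratio of Tap1 to H2-K1 was -3.04, -0.80 and -2.46 in control cells, -2.02, -0.39 and -1.63 in DAC-treated cells, -1.02, 0.50 and -0.87 after SFN, and 0.31, 0.38 and -0.58 after DAC+SFN. In each replicate it was higher with DAC, SFN and DAC+SFN than in control, and the DAC+SFN libraries were all above the control libraries. The log2 ratio of Nlrc5 to H2-K1 was -5.83, -4.41 and -4.94 in control and -2.65, -2.34 and -2.74 with DAC+SFN, which do not overlap. The log2 ratio of B2m to H2-K1 was 2.26, 3.83 and 2.13 in control and 3.98, 3.98 and 3.47 with DAC+SFN. In replicate 2, where H2-K1 was low from the start, this ratio and that of H2-D1 to H2-K1 (0.78 in control and 0.76 with DAC+SFN) differed little between these groups. A ratio shows that these genes changed unequally, and does not show that either of them was stable.

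**Figure D3:**
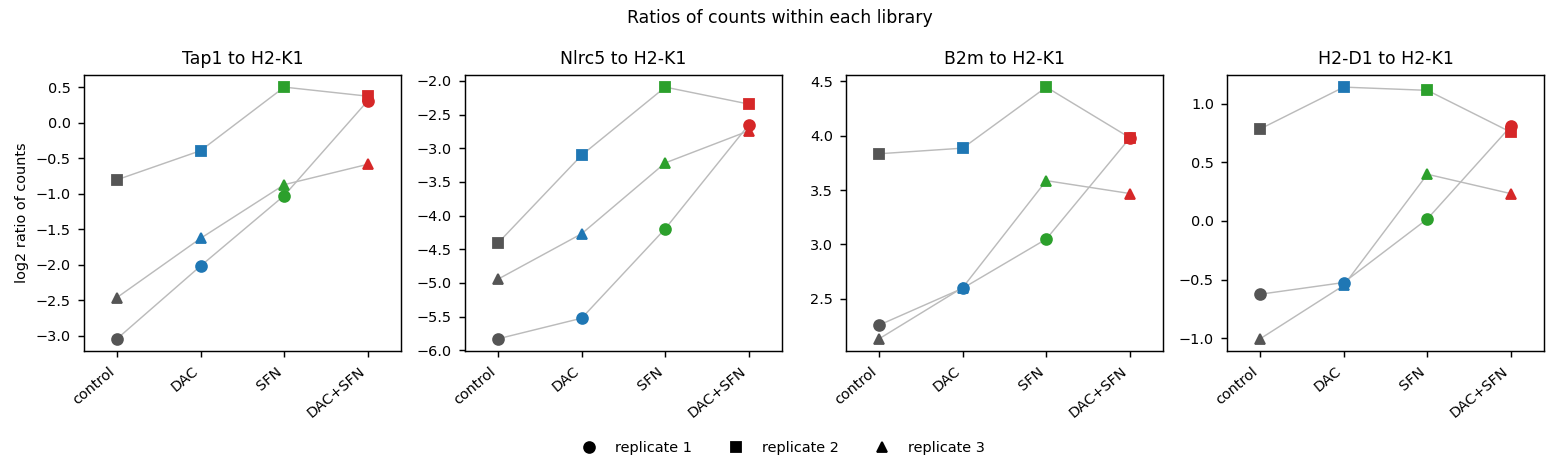
Log2 ratio of counts to those of H2-K1 in the same library (vertical axis) for Tap1, Nlrc5, B2m and H2-D1, by group, with grey lines joining libraries of the same replicate number. The Tap1 ratio lies between -3.04 and -0.80 in control and between -0.58 and 0.38 with DAC+SFN, and replicate 2 is the highest in control.

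The members were also compared over the 12 libraries after centring on each replicate number. The highest Pearson's r were 0.885 between Tap2 and Tapbp, 0.861 between Tap1 and Nlrc5, 0.828 between Tap1 and Tapbp, 0.812 between H2-D1 and B2m and 0.749 between H2-K1 and H2-D1. It was -0.434 between H2-K1 and Nlrc5 and -0.329 between H2-K1 and Tap1. The points share libraries and their scaling, so these values describe the libraries and carry no test. The mean of the 8 members correlated most with Tapbp (0.916) and Tap2 (0.852) and least with H2-K1 (0.310). Outside the members and the lists, the genes closest to that mean were Lgals3bp (r = 0.966), Ogfr (0.966), Trim21 (0.965), Parp10 (0.950) and Map1lc3a (0.943). Lgals3bp, a secreted galectin-binding glycoprotein, averaged 309.8 CPM with DAC and 289 CPM with DAC+SFN, above its means of 214 CPM in control and 222 CPM with SFN.

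Of 25 tested regulators of class I transcription and interferon signalling, 1 rose and 6 fell with DAC+SFN, where 17.0% of all genes rose and 14.7% fell, and their median log2 fold change was -0.04. Nfyc, a subunit of NF-Y, fell (-0.37, adjusted p = 0.00274), as did Ifnar1, an interferon receptor chain (-0.28, adjusted p = 0.00287), and Ptpn2, a phosphatase that restrains STAT signalling (-0.32, adjusted p = 0.00583). Creb1, a member of the CREB family that was named after its values were seen, also fell (-0.31, adjusted p = 0.00946). The RFX partners of NLRC5, Rfx5 (0.18, adjusted p = 0.198), Rfxap (-0.27, adjusted p = 0.0649) and Rfxank (-0.24, adjusted p = 0.108), did not pass. Neither did the transcription factors Irf1 (-0.14, adjusted p = 0.356) and Irf2 (0.06, adjusted p = 0.661). With DAC averaged over SFN, the regulators that rose included Irf9 (0.53, adjusted p = 0.0161) and Stat2 (0.35, adjusted p = 0.0307), which were named after their values were seen. Ciita, the class II counterpart of Nlrc5, had 0 counts in all 12 libraries, which allows up to 3 counts in each.

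Of 32 interferon-responsive genes outside the class I pathway, 30 were tested, and 19 rose and 0 fell with DAC+SFN, where 17.0% of all genes rose and 14.7% fell, and their median log2 fold change was 0.63. The smallest p-values were those of Ifit1 (1.72, adjusted p = 4.12e-05), Cxcl10, a chemokine for T cells (1.01, adjusted p = 5.52e-05), and Ifit3b (1.69, adjusted p = 0.00198). With DAC averaged over SFN, 26 of the 30 rose, where 3.07% of all genes rose. The list was chosen with earlier results of these data known, so these contrasts with all genes are not independent of them. With SFN alone 0 rose and 2 fell, where 8.27% of all genes rose and 5.65% fell. With DAC alone 0 were called, although 27 had an unadjusted p under 0.05 and all 30 log2 fold changes were positive, with a median of 0.79. The corresponding medians of the 8 class I members were 0.30, 0.29, -0.04 and 0.28 in the order DAC+SFN, DAC averaged over SFN, SFN and DAC. Of 10 MHC class II genes only H2-DMa and H2-DMb1, which exchange peptides on class II molecules, passed the filter, and both rose with DAC+SFN (1.72, adjusted p = 0.000585, and 0.60, adjusted p = 0.00904). No control library reached 1 CPM for H2-DMa, so it passed only through treated groups.

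**Figure D4:**
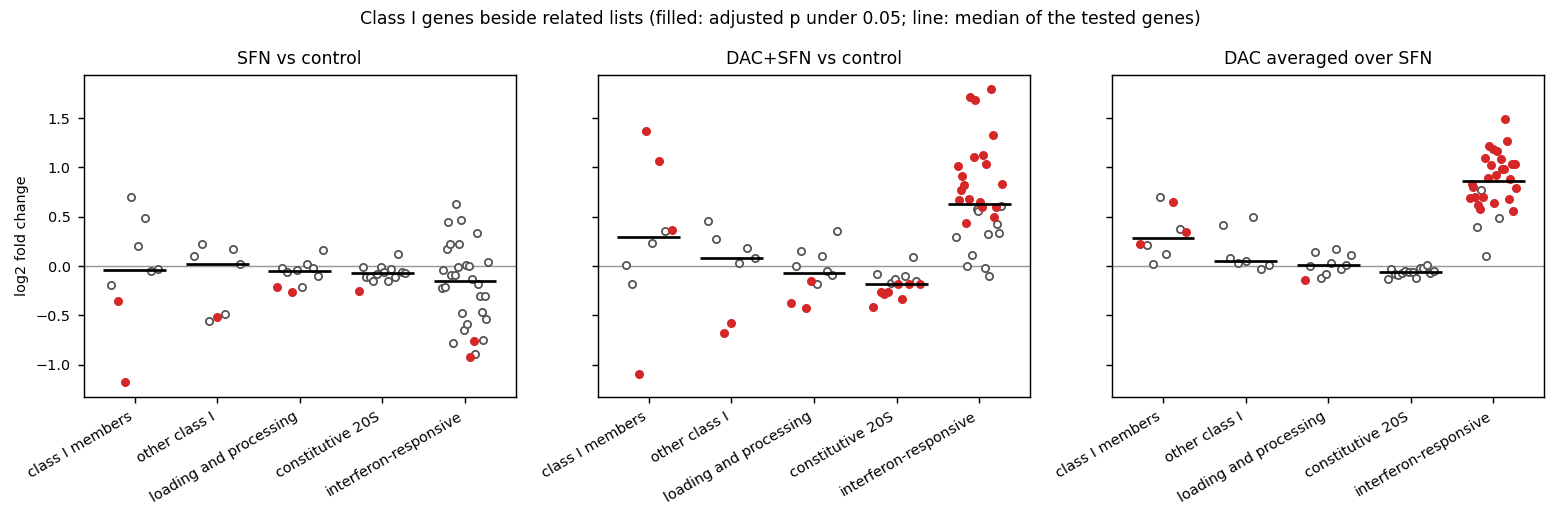
Log2 fold change (vertical axis) of each tested gene in 5 groups of genes for 3 comparisons, filled where the adjusted p was under 0.05, with the median of the tested genes as a line. The class I members spread from -1.10 to 1.36 with DAC+SFN, whereas the interferon-responsive genes have a median of 0.63 there and -0.15 with SFN.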

How the data were processed

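RNA of B16F10 cells was measured in 12 libraries, with 3 repeats in each of 4 groups. The authors deposited raw counts of uniquely aligned reads per gene symbol, and per the labels and the methods reads were checked with FastQC 0.11.7, trimmed with Trimmomatic 0.38, aligned to mm10 with TopHat2 2.1.1 and counted with HTSeq, with an annotation not given in the sources used here. Libraries held 15880957 to 27291436 counts. The filter kept genes at 1 CPM or more in 3 or more libraries, which were scaled by TMM and tested with glmQLFTest (legacy fit, two-sided) in edgeR 4.0.16 under R 4.3.3, with all 12 libraries in 1 model and the Benjamini-Hochberg adjustment over all 11638 genes. The study corrected for a batch that is not named, and the replicate number was used as the block, since samples of the same number correlated by 0.544 on average over 18 pairs. A gene was called at an adjusted p under 0.05. Log2 fold changes carry a prior count of 0.125. The alternatives were DESeq2 1.42.0 and its size factors, other filters, no block, the version 4 fit, a prior count of 2, only the groups compared, a fold change above 2, and each library left out. The p-values cover the spread between repeats of 1 line. The fit was tested on simulated counts of the same design.

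The members and gene lists were chosen with earlier results of these data known. Named were all members, the 3 genes of each list with the smallest p in DAC+SFN against control, the regulators Irf1, Irf2, Rfx5, Rfxap, Rfxank and Ciita, and the 5 genes most correlated with the mean of the members. A further regulator named by this rule is not reported here. Positions came from GENCODE release M21 and promoter sequences from RefSeq (GRCm38.p6). Figures were drawn with matplotlib 3.10.9.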

Additional observations from a re-analysis of the deposited data

How the results depend on the processing

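Depth limits Psmb8 and Psmb9, with no library above 22 counts, and Nlrc5, which had 15 to 81, and reads shared between H2 genes limit the heavy chains. No interaction was called for a member under any alternative. The calls depended most on the replicate block. With no replicate block, 0 members were called with SFN against control in place of 2, 1 (Tap1) with DAC+SFN against control in place of 4, 0 with DAC+SFN against DAC in place of 3 and 0 with DAC averaged over SFN in place of 3. In that fit, calls over all genes fell as well, from 1619 to 23 with SFN and from 3683 to 1201 with DAC+SFN against control. They fell from 1879 to 20 with DAC+SFN against DAC and from 607 to 1 with DAC averaged over SFN. Every called member kept its direction with no replicate block. With a fold change above 2 also required, 1 was called with SFN, 1 with DAC+SFN against DAC and 0 with DAC averaged over SFN. The shares of all genes were 1.28%, 0.928% and 0.172% in that order. With DAC against control, 1 was called by DESeq2, 1 with no filter on low counts and 3 with only the groups compared. Over all genes these fits called 83, 169 (of 17403 tested) and 662, against 21 in the main fit. With DAC+SFN against SFN, the numbers of members were 2, 2 and 4 in the same order. Those over all genes were 404, 486 and 1221, against 187 in the main fit. The cause of these differences was not tested.

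Leaving out each library in turn gave 0 called members for DAC, 1 to 2 for SFN, 3 to 5 for DAC+SFN, 1 to 3 for DAC+SFN against DAC, 0 to 2 for DAC+SFN against SFN and 1 to 4 for DAC averaged over SFN. With SFN only H2-K1 was called without replicate 1 or 2 of control or replicate 2 of SFN, and with DAC+SFN against DAC only H2-D1 was called without replicate 1 of DAC+SFN. With DAC+SFN against SFN, Tapbp was called without replicate 2 or 3 of DAC, and Tap1 and Tapbp without replicate 3 of DAC+SFN. Over all genes, calls in these fits ran from 0 to 101 for DAC (21 with all libraries) and from 726 to 2105 for SFN (1619). For DAC+SFN they ran from 2333 to 4199 (3683), and against DAC from 769 to 2377 (1879). Against SFN they ran from 0 to 703 (187), and for DAC averaged over SFN from 160 to 1365 (607).

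Changes of direction arose only in members that were not called. For B2m with DAC+SFN against control, the log2 fold change was -0.017 with no filter and -0.0046 with only the groups compared. For DAC+SFN against DAC it was -0.098 for Tap2, -0.0096 for Tapbp and -0.000496 for Psmb10 with no replicate block, -0.0075 for Tap2 and -0.0078 for Psmb10 with no filter, and -0.086 for Tap2 in the version 4 fit. With no replicate block, H2-K1 was at -0.0042 with DAC averaged over SFN and Tap2 at -0.019 in the interaction, where the version 4 fit gave -0.00877. With libraries left out in turn, DAC against control ranged from -0.22 to 0.095 for H2-K1, -0.065 to 0.57 for Tap2 and -0.015 to 0.37 for Psmb10, and SFN against control from -0.14 to 0.16 for Tap2 and -0.092 to 0.039 for Tapbp. DAC+SFN against control ranged from -0.045 to 0.052 for B2m. DAC+SFN against DAC ranged from -0.22 to 0.42 for Tap2, -0.080 to 0.19 for Tapbp and -0.16 to 0.24 for Psmb10. DAC+SFN against SFN ranged from -0.26 to 0.45 for H2-K1 and -0.15 to 0.18 for Psmb10, and DAC averaged over SFN from -0.15 to 0.20 for H2-K1. The interaction ranged from -0.22 to 0.48 for H2-K1, -0.16 to 0.040 for B2m, -0.39 to 0.098 for Tap1, -0.17 to 0.47 for Tap2, -0.048 to 0.23 for Tapbp, -0.37 to 0.034 for Psmb10 and -0.36 to 0.23 for Nlrc5.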
